A study of Arabidopsis thaliana with 3 samples.

Results

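The most abundant nuclear transcripts of Arabidopsis thaliana sperm cells are described here. They are the loci of the 5 nuclear chromosomes listed at or above 1000 TPM in sperm, and 87 of 33323 nuclear transcripts met that rule. TPM corrects each level for transcript length and scales the column to 1000000. The sperm level chose these transcripts, so it is given as a description with no test. The cells came from wild-type Col-0 plants and were isolated by fluorescence-activated sorting, and Smart-seq2, which makes full-length cDNA from little RNA, was used for the libraries. The labels describe 3 sperm libraries, and nothing in them says whether these came from separate plants or sorts. Each transcript has a single sperm value, taken as the authors' mean over these libraries, so no value carries an SD. Depth is unknown, since TPM keeps no read counts. A further 13 value columns match no sample described here and were not used, so no comparison with another tissue is made.

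Sperm cells of flowering plants are the pair of male gametes that a pollen grain carries to the ovule, where one fuses with the egg cell and the other with the central cell. The MYB transcription factor DUO1 directs the division of their precursor, the generative cell, and switches on many genes of the male germline. Sperm have condensed chromatin with a male-gamete-specific histone H3, and they pass through the cell cycle inside the grain.

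The 87 transcripts held 72.6% of all sperm TPM. The 678 nuclear transcripts from 100 to under 1000 TPM held 17.5%, and the 32558 below 100 TPM held 9.62%. Even among the 87 the TPM was concentrated. The 14 transcripts at or above 10000 TPM held 50.6% of the sperm total, the 15 from 5000 to 10000 TPM held 10.2%, the 20 from 2000 to 5000 TPM held 6.57% and the 38 from 1000 to 2000 TPM held 5.26%. The highest, DAF1 at 110116 TPM, was 109 times the lowest, AT4G39230 at 1006 TPM. The median was 2892 TPM, and the 10 highest transcripts made up 62.5% of the sum of all 87. Of the 87, the reference lists 85 as protein coding, 1 as ribosomal RNA and 1 as a transcribed pseudogene.

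The threshold fell within a smooth run of values. Just inside it stood CHR17 at 1064 TPM, AT5G22875 at 1052 TPM, AT2G46170 at 1040 TPM, UBC20 at 1022 TPM and AT4G39230 at 1006 TPM. Just outside stood AT2G41250 at 994 TPM, the poly(A)-binding protein gene PAB6 at 985 TPM, AT1G78895 at 981 TPM, AT3G10770 at 964 TPM and the ribosome assembly factor gene eIF6A at 941 TPM. No gap separates the abundant transcripts from the next ones.

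**Figure D1:**
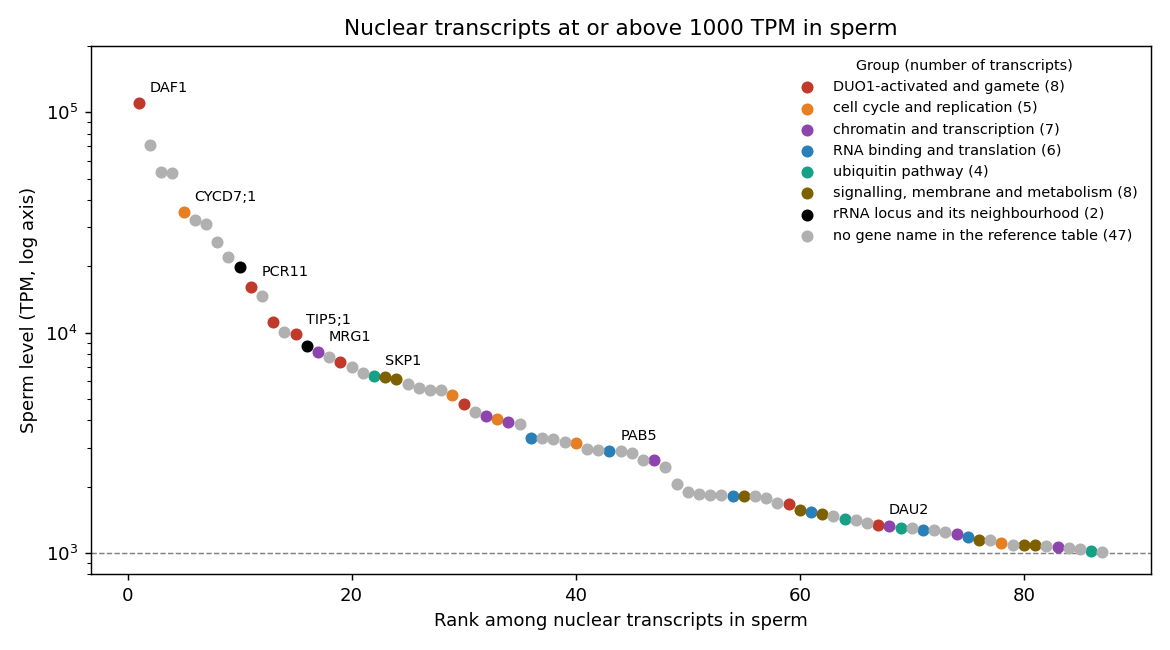
Level of each of the 87 transcripts in sperm (TPM, log axis) against its rank among nuclear transcripts, with 1 point per transcript. Colours give the group that its reference name or its position puts it in, and the dashed line marks 1000 TPM. The 47 transcripts with neither a gene name nor a group (grey) are spread over the whole range and fill 7 of the 10 highest places.

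The deposited means hold some information on the spread between the libraries. The means fit library values written with 6 significant digits. Such values have coarser steps when they are larger, so the last digits of 3 times the mean show whether at least 1 library lay below a given power of 10. Such a trace is missed where that library's last digit is 0, about 1 time in 10, and where the library is listed at 0. Of the 87 transcripts, 6 carried digits that need a library below 1000 TPM, and 81 did not. The 6 were RABG3E, AT5G16110, AT5G22875, AT2G46170, UBC20 and AT4G39230, and all had means of at most 1082 TPM. Among the 64 transcripts with means from 1100 to under 10000 TPM, 0 carried such a trace.

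The same was looked at 1 power of 10 lower. Of the 609 nuclear loci with means from 1.1 times 100 TPM to under 1000 TPM, 17 (2.79%) carried digits of a library below 100 TPM. From 1.1 times 10 TPM to under 100 TPM, 94 of 2281 (4.12%) carried digits of a library below 10 TPM. Of the 14 transcripts with means at or above 10000 TPM, 1 carried digits of a library below that level. It was DAZ3, whose mean was 11141 TPM. For DAF1 the digits need at least 1 library below 100000 TPM, under its mean of 110116 TPM. How far apart the libraries lay above these bounds was not measured, because their single values were not analysed here.

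**Figure D2:**
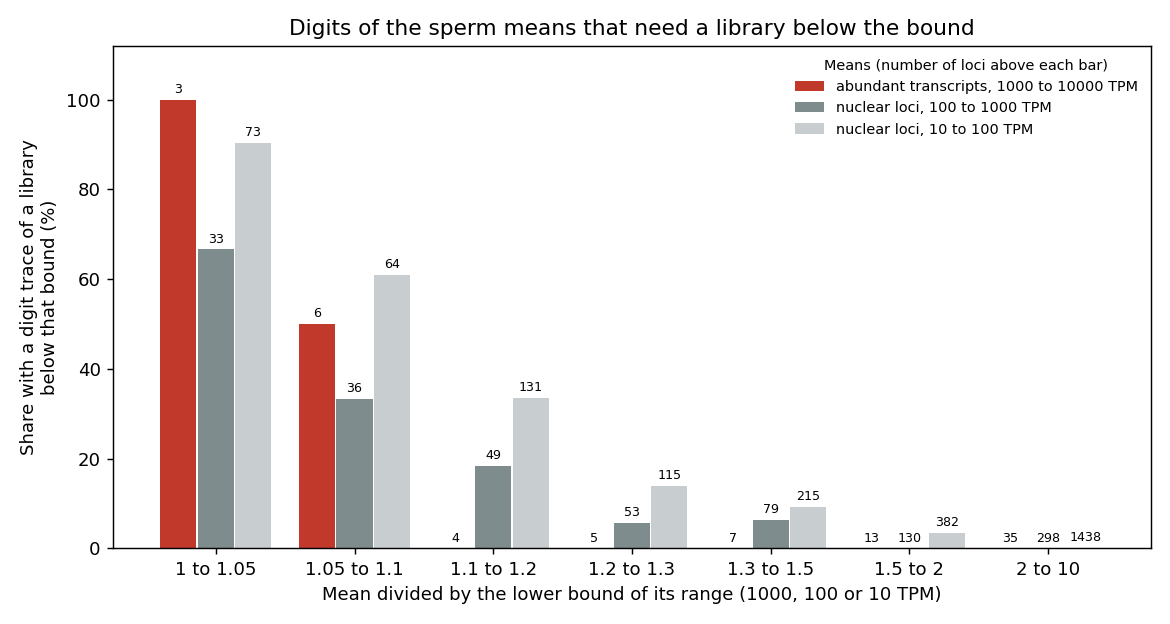
Share of sperm means whose digits need a library below the lower bound of their range (%), by how far the mean lies above that bound; bars stand for the abundant transcripts (bound 1000 TPM) and for nuclear loci of the ranges below (bounds 100 and 10 TPM), with the number of loci above each bar. Traces of a library below 1000 TPM were found in 3 of 3 abundant transcripts within 1.05 times the bound, in 3 of 6 from 1.05 to 1.1 times, and in 0 of the 64 above that.

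Of a list of 19 germline genes, 8 were among the 87, and of a list of DUO1 and 11 genes it activates, 6 were. The rule itself takes 0.261% of nuclear loci, and nothing is read from these counts because the sperm level both chose the transcripts and is known to mark these genes. Together the 8 held 16.2% of all sperm TPM, most of it from DAF1. DAF1 (AT3G62230) encodes an F-box protein, a class that picks proteins for ubiquitination. PCR11 (AT1G68610), of a family named for cadmium resistance, was at 16145 TPM. DAZ3 (AT4G35700), a zinc finger gene, was at 11141 TPM, and TIP5;1 (AT3G47440), a water channel gene of internal membranes, at 9815 TPM.

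DAN1 (AT3G04620), named as a nucleic acid binding protein, was at 7387 TPM. MGH3 (AT1G19890), also called HTR10, encodes the male-gamete-specific histone H3 and was at 4750 TPM. GEX1 (AT5G55490), whose membrane protein acts in fusion of nuclei, had 1670 TPM, and DAU2 (AT5G39650), also called DMP9, a sperm membrane protein gene of gamete fusion, was at 1342 TPM.

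Genes of the same pathway were spread over a wide range. DUO1 (AT3G60460) itself was at 82.3 TPM. The fusion gene HAP2 was at 87.9 TPM, the adhesion gene GEX2 at 71.8 TPM, the oligopeptide transporter gene OPT8 at 156 TPM, and the zinc finger genes DAZ1 and DAZ2 at 52.8 and 39.4 TPM. The reference table names 9 genes as DUO1-activated, and 4 of them were among the 87. The other 5 lay between 8.41 TPM (DAU1) and 98.0 TPM (DAA1).

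The levels of markers of other cells were as follows. The vegetative cell surrounds the sperm in the grain and forms the pollen tube, and 0 of its 21 listed markers were included. With 0.261% of all nuclear loci taken by the rule, nothing is read from a count of 0 in lists of this size. Of the 21 markers 16 reached 1 TPM and none was at 0, with levels between 0.035 TPM (VEX1) and 127 TPM (AGP6). Over all nuclear loci, 21.8% reached 1 TPM and 43.0% were listed at 0. The median was 205 TPM over the 19 germline genes, 8 of which the rule itself took, and 2.44 TPM over the 21 vegetative markers, which summed to 402 TPM. The germline genes ranged from 5.77 TPM (DUO3) to 110116 TPM (DAF1), so the levels of the lists overlap. Of 5 tapetum genes 4 were listed at 0, as were 4 of 5 seed genes, and the 5 leaf photosynthesis genes summed to 0.495 TPM. The 3 embryo genes were at most 4.76 TPM (WOX2), and STM, WOX5 and PLT1 of meristems were listed at 0. With 43.0% of all nuclear loci listed at 0, nothing is read from zeros in lists this short. The part of vegetative cell RNA in the levels of the 87 was not tested. In bulk RNA, fewer cells of a type and less RNA per cell cannot be told apart.

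Cell cycle and replication genes with a reference name formed a group of 5 with 4.88% of sperm TPM. The D-type cyclin gene CYCD7;1 (AT5G02110) was the fifth highest nuclear transcript at 35229 TPM and held 99.9% of the TPM of the 10 D-type cyclin genes. The next of them, CYCD1;1, was at 19.2 TPM, followed by CYCD3;2 at 9.99 TPM and CYCD4;1 at 6.15 TPM. The other 6 ranged from 0 to 2.01 TPM. D-type cyclins bring cells into the cell cycle by activating the kinase that releases the block by the retinoblastoma protein.

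ORC6 (AT1G26840), a subunit of the complex that marks replication origins, was at 5205 TPM. The other 6 origin recognition genes were all above 1 TPM, and the highest was 51.0 times lower, with ORC5 at 102 TPM, ORC3 at 79.4 TPM, ORC2 at 45.6 TPM, ORC1B at 18.5 TPM, ORC1A at 8.62 TPM and ORC4 at 8.02 TPM. TSO2 (AT3G27060) encodes a small subunit of ribonucleotide reductase, the enzyme that makes deoxynucleotides, and was at 4069 TPM. The small subunit gene RNR2A was at 81.6 TPM and the large subunit gene RNR1 at 4.77 TPM.

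CKS2 (AT2G27970), a subunit of cell cycle kinases, was at 3144 TPM, against 203 TPM for CKS1, the locus next to it on the chromosome. The mitotic cyclin gene CYCB1;2 (AT5G06150) was at 1104 TPM. Among the 9 other B-type cyclin genes 7 reached 1 TPM, with the highest values for CYCB3;1 at 96.2 TPM and CYCB1;3 at 49.0 TPM. Reads of close copies cannot be divided between them with certainty, so the split within the CKS1 and CKS2 pair is uncertain, as it is for other near-identical pairs such as UBC19 and UBC20.

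Genes with a reference name that were grouped under chromatin and transcription numbered 7, with 2.25% of sperm TPM. MRG1 (AT4G37280), whose chromo domain protein binds methylated histone H3, was at 8144 TPM, while its relative MRG2 was at 1.01 TPM. SDG4 (AT4G30860), a SET domain histone methyltransferase gene also called ASHR3, was at 4187 TPM. Of the 34 other genes numbered in the SET domain group, 17 were at or above 1 TPM, and the highest was SDG24 (ASHH4) at 474 TPM. EIN3 (AT3G20770), the transcription factor of the ethylene response, was at 3925 TPM, with its relatives EIL1 at 557 TPM, EIL2 at 85.9 TPM and EIL3 at 0.062 TPM.

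SOL1 (AT3G22760), a relative of the cysteine-rich DNA-binding protein gene TSO1, was at 2627 TPM, and TSO1 itself was at 0.019 TPM. ORTHL (AT4G08590), also named VIM6, belongs to a family that binds methylated DNA and was at 1330 TPM. VIM1 to VIM5 were all detected, between 14.4 and 60.7 TPM. KIWI (AT5G09250), a transcriptional coactivator gene, was at 1216 TPM and its relative KELP at 146 TPM. CHR17 (AT5G18620), an ISWI-type chromatin remodeller gene, was at 1064 TPM. It stood 2.03 times above the next gene of the CHR numbering, ATRX (CHR20), at 525 TPM, and CHR11, the other ISWI-type gene, was at 2.76 TPM.

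RNA-binding and translation genes with a reference name numbered 6. Poly(A)-binding proteins coat the tails of messenger RNAs, and 3 of their 8 genes were among the 87. PAB5 (AT1G71770) was at 2907 TPM, PAB2 (AT4G34110) at 1528 TPM, PAB7 (AT2G36660) at 1275 TPM and PAB6 just outside at 985 TPM. PAB3 was at 31.6 TPM and PAB4 at 0.097 TPM, and PAB1 and PAB8 were listed at 0. The other 27 families formed from reference names held 1 of the 87 each. LARP6a (AT5G46250), a La-related RNA-binding protein gene, was at 3339 TPM, and the 5 other La-related genes were between 0.579 and 14.3 TPM.

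REIL1 (AT4G31420), which acts in maturation of the large ribosomal subunit in the cytosol, was at 1812 TPM, and its relative REIL2 at 2.09 TPM. ECT10 (AT5G58190), of the YTH family that reads methylated adenosine in RNA, was at 1178 TPM. ECT8 followed at 183 TPM and ECT11 at 30.9 TPM, while ECT2, ECT3 and ECT4, the readers best known from leaf development, were at 0.523, 0.018 and 0.007 TPM.

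Besides DAF1, 4 genes with a reference name were grouped under the ubiquitin pathway. SKP1 (AT1G75950), the adaptor that links F-box proteins to the SCF ubiquitin ligase, was at 6365 TPM. Of the 19 other SKP1-like genes 9 reached 1 TPM, the highest being SK18 at 538 TPM, and 6 were listed at 0. BPM2 (AT3G06190), an adaptor of another class of ligase, was at 1421 TPM, 3.55 times BPM3 at 401 TPM. PUX3 (AT4G22150), a partner of the unfolding enzyme CDC48, was at 1300 TPM. The 5 other genes found by a PUX name were between 0.055 and 1.11 TPM. UBC20 (AT1G50490), a ubiquitin-conjugating enzyme, was at 1022 TPM and its close copy UBC19 at 461 TPM.

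The last 8 named genes act in signalling, membranes and metabolism. MAPKKK20 (AT3G50310), a kinase at the head of a MAP kinase cascade, was at 6302 TPM, with MAPKKK19 at 521 TPM and the other 19 MAPKKK genes between 0 and 39.6 TPM. MIOX4 (AT4G26260), an enzyme of inositol oxidation, was at 6165 TPM. MIOX5 was at 155 TPM, and MIOX2 and MIOX1 were at 0.440 and 0.371 TPM. ACD11 (AT2G34690), a sphingolipid transfer protein gene, was at 1812 TPM, the receptor-like cytoplasmic kinase gene PBL27 (AT5G18610) at 1569 TPM and LFG4 (AT1G03070), of the cell death suppressor family LIFEGUARD, at 1502 TPM.

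DET3 (AT1G12840), a subunit of the vacuolar proton pump, was at 1139 TPM. AGT3 (AT2G38400), an aminotransferase gene, was at 1085 TPM, with AGT2 at 0.091 TPM and AGT1 listed at 0. RABG3E (AT1G49300), a Rab GTPase of vacuolar traffic, was at 1082 TPM, with RABG3A at 129 TPM and the 4 others at or below 1.99 TPM.

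Families were formed from reference names for 28 gene groups, which do not cover every family such names allow, the DAZ, DAU and PCR genes among those left out. A family holds only genes found by such a name, so it can lack genes, as for the PBL kinases. A relative missing in this way could be higher than those listed. In these 28 families, 30 of the 87 transcripts could be set beside 232 relatives. Relatives here means the other genes of a group, and no sequence likeness was examined. Some groups join different subunits of 1 complex or enzyme, as for origin recognition and ribonucleotide reductase. The gamete expressed genes share only a name. All of these groups are in the counts that follow. In 17 families the highest relative was at least 10 times lower than the abundant gene, in 9 at least 100 times, and in 4 under 5 times. These ratios are a description, since the rule fixes that the abundant gene is the higher one. A gene of these families at or above 1000 TPM counts among the 87, so every relative lies below that level by construction. Of the 232 relatives, 121 (52.2%) reached 1 TPM, 25 (10.8%) reached 100 TPM and 25 were listed at 0. Over nuclear loci with a reference symbol these shares were 27.7% and 3.27%, and over all nuclear loci 21.8% reached 1 TPM. Of the loci with a symbol 30.1% were listed at 0. The families were picked for holding an abundant gene, so these shares are a description, with no test.

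**Figure D3:**
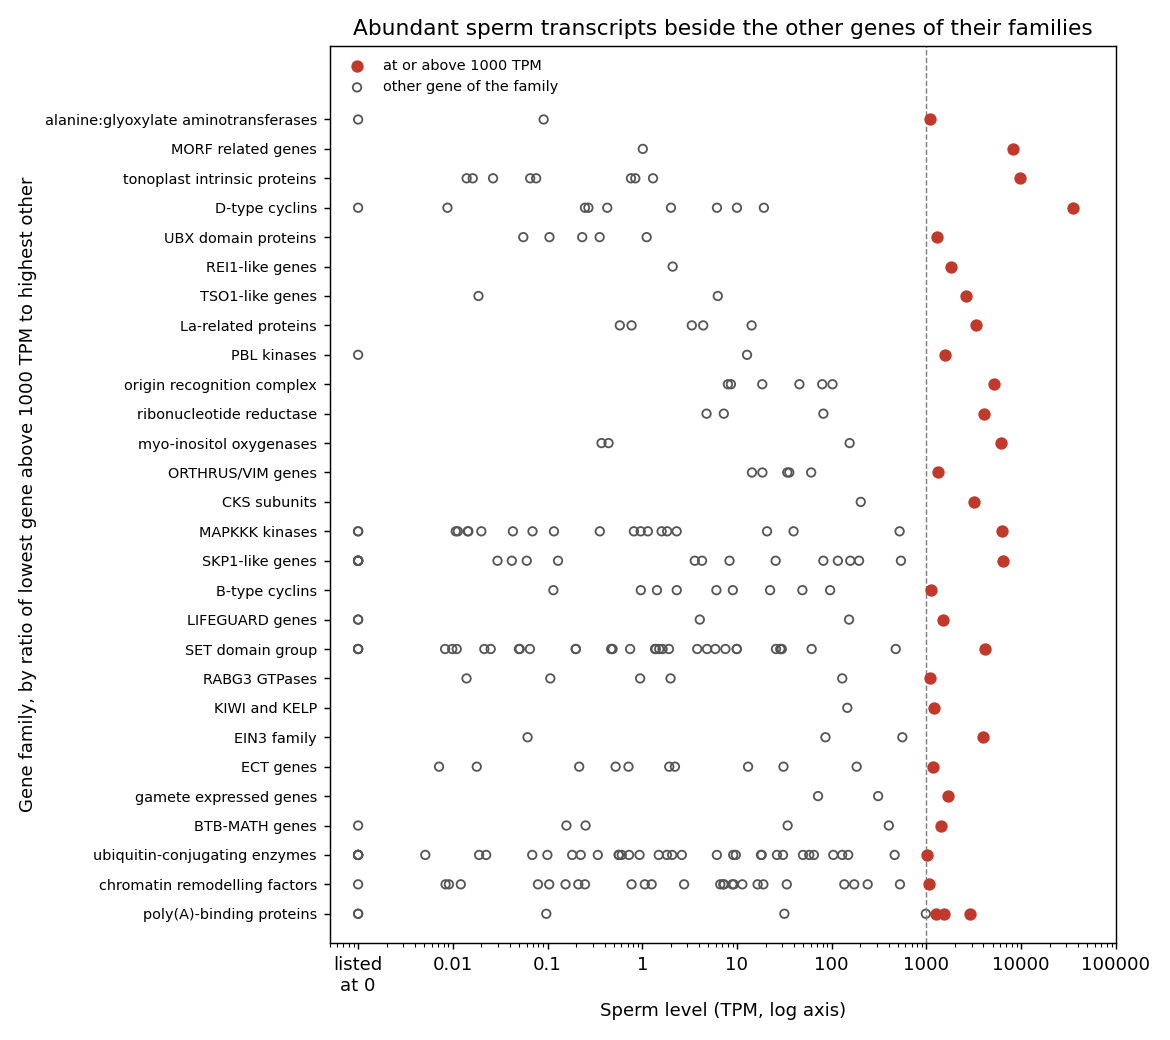
Sperm level (TPM, log axis) of the genes placed by reference name in 28 families, with transcripts at or above 1000 TPM (filled) and their named relatives (open). The dashed line is at 1000 TPM and values of 0 are drawn at the left edge. Families are ordered by the ratio of the lowest filled to the highest open gene. Tonoplast intrinsic proteins and D-type cyclins show 1 gene far to the right of the rest, whereas PAB6 at 985 TPM lies close to the abundant poly(A)-binding protein genes.

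Much of the sperm TPM came from loci without a gene name in the reference table used here. A symbol is given in the reference for 34 of the 87, and 6 more were grouped from a synonym or their position. The remaining 47 had only a locus identifier or clone names, and they held 42.1% of all sperm TPM. Of these, 9 were at or above 10000 TPM, 19 from 2000 to 10000 TPM and 19 below 2000 TPM. AT2G30230 was the highest at 70893 TPM, followed by AT2G45403 at 53523 TPM and AT1G34095 at 53111 TPM. AT4G21895 (32294 TPM) and AT1G75870 (31160 TPM) stood close together, and AT4G14315 had 25648 TPM and AT1G49290 22117 TPM. AT1G80470 was at 14654 TPM and AT2G37470 at 10019 TPM. These 9 were spread through the first 14 places, beside DAF1, CYCD7;1, PCR11, DAZ3 and AT2G01021.

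From 5000 to 10000 TPM the unnamed loci were AT5G15030 at 7778 TPM, AT2G39420 at 6957 TPM, AT3G12510 at 6542 TPM, AT1G55410 at 5838 TPM, AT4G26960 at 5574 TPM, AT5G10950 at 5512 TPM and AT1G60240 at 5467 TPM. AT1G55410 is the transcribed pseudogene. It held 0.584% of sperm TPM, and all 926 loci of that type together held 0.729%. From 2000 to 5000 TPM stood AT1G15430 at 4348 TPM, AT5G15040 at 3844 TPM, AT3G52700 at 3331 TPM, AT2G46490 at 3301 TPM, AT4G35610 at 3183 TPM, AT3G47410 at 2956 TPM, AT5G55680 at 2926 TPM and AT2G44925 at 2892 TPM. AT5G16100 at 2839 TPM, AT1G31990 at 2642 TPM, AT1G60410 at 2461 TPM and AT1G48740 at 2062 TPM completed that range. The 19 below 2000 TPM ran without a large step from AT5G23160 at 1881 TPM, AT4G39670 at 1857 TPM, AT1G20220 at 1835 TPM and AT1G10095 at 1833 TPM down to AT4G39230. The reference table used here holds no product descriptions, so no role is given to these loci, and the counts of the groups above leave out any of them that belong there.

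Locus numbers gave a further description. Identifiers of the Arabidopsis genome were first assigned in steps of 10, and loci added later carry numbers that do not end in 0. Of the 87, 10 (11.5%) have such a number, against 21.9% of all nuclear loci and 11.9% of those at or above 1 TPM. These 10 held 20.03% of sperm TPM, and 5 of them were among the 10 highest. Those 5 were AT2G45403, AT1G34095, AT4G21895, AT4G14315 and AT2G01021. Of the 87, 27 lie on chromosome 1, 12 on chromosome 2, 12 on chromosome 3, 15 on chromosome 4 and 21 on chromosome 5. The share of each chromosome's listed loci that this makes ranged from 0.178% on chromosome 3 to 0.320% on chromosome 1.

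A pair of the 87 concerns the ribosomal RNA repeats. AT3G41768, the ribosomal RNA locus, was at 8730 TPM. AT2G01021, at 19831 TPM, is listed as protein coding and lies next to the ribosomal RNA locus AT2G01020 on chromosome 2. AT2G01020 and AT3G41979 were listed at the same level, 411 TPM each, and AT2G01010 at 4.69 TPM. Ribosomal RNA loci are near-identical repeats, so reads cannot be assigned to 1 copy with certainty, and these values are uncertain.

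Several of the highest transcripts lay between loci at low levels, while others did not, such as AT2G45403 (892 TPM beside it) and AT2G01021 (411 TPM). The 2 loci flanking DAF1 were at 0.495 and 0.270 TPM, those flanking AT2G30230 were both listed at 0, and those flanking DAZ3 were at 0.107 and 0.103 TPM. Over the 87, the higher of the flanking loci had a median of 2.25 TPM. For the 678 loci from 100 to under 1000 TPM this median was 1.91 TPM, and for all placed nuclear loci 0.268 TPM. A flanking locus that reached 1 TPM was found for 52 of the 87 (59.8%), against 58.1% of the loci from 100 to under 1000 TPM and 38.0% of all placed nuclear loci. For a flanking locus at or above 100 TPM these shares were 19.5%, 12.7% and 4.58%.

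Abundant transcripts lay next to each other in 4 pairs, which hold 8 of the 87 (9.20%). A neighbour at or above 1000 TPM was found for 1.33% of the loci from 100 to under 1000 TPM and for 0.530% of all placed nuclear loci. AT1G49290 at 22117 TPM lies beside RABG3E at 1082 TPM, AT5G15030 at 7778 TPM beside AT5G15040 at 3844 TPM, AT5G16100 at 2839 TPM beside AT5G16110 at 1071 TPM, and PBL27 at 1569 TPM beside CHR17 at 1064 TPM. AT2G45403 at 53523 TPM lies beside AT2G45406, below the threshold at 892 TPM, and CYCD7;1 beside AT5G02100 at 561 TPM. The labels do not say that strand was used, and no strand or overlap of the loci was examined, so reads of overlapping or read-through transcripts could be counted at both loci of a pair. Their part in these levels was not tested.

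**Figure D4:**
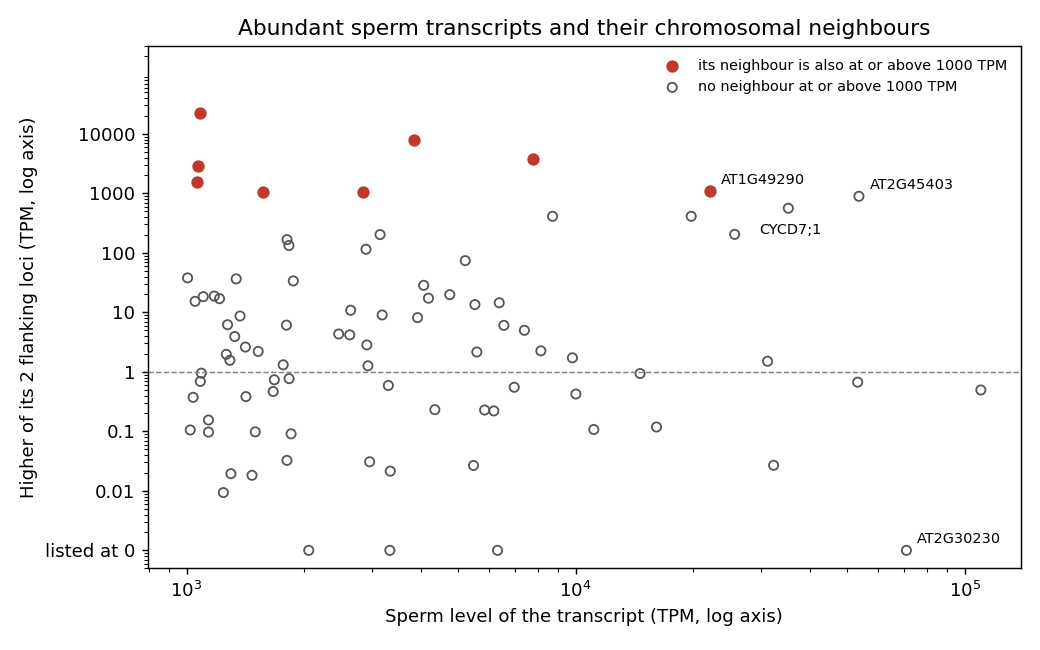
Higher of the 2 flanking loci (vertical, TPM, log axis, values of 0 drawn at the bottom) against the sperm level of each of the 87 transcripts (horizontal, TPM, log axis), with 1 point per transcript; filled points are the 8 transcripts whose neighbour is also at or above 1000 TPM, and the dashed line marks 1 TPM. Of the 87, 52 lie at or above that line and 4 have both flanking loci listed at 0.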

How the data were processed

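RNA was sequenced from sorted sperm cells with Smart-seq2, with 3 libraries in the labels. The authors deposited TPM values, as the file's name says, with 1 sperm column that sums to 1000000 over 33602 transcripts, 1 per locus. Per the submitters' processing notes the tools were kallisto 0.43.1, STAR 2.5.2a, Trim Galore 0.4.1, bedtools and SAMtools and the build was TAIR10, with no roles. No source used here gives the annotation or filters. The column was taken as the authors' mean because 3 times its values falls on steps of 6-digit numbers. This digit reading was tested on simulated library values rounded to 6 digits, at the bound of 1000 TPM only. That test covers neither the other bounds nor the way the deposited means were made. The other 13 value columns match no sample described here and were not used, so 5 planned comparisons across them were not computed. Promoter motifs and protein lengths were not computed either, since no sequences were used here. No test is given, since 1 column of means has no replicates.

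A RefSeq table (assembly TAIR10.1) gave names, gene types and gene order, and all 87 loci were found in it by locus tag. Transcripts at or above 1000 TPM in sperm were taken, and 1 TPM counted as detected. The transcripts and gene lists were chosen with earlier results of these data known. The planned naming rule allowed every one of the 87 to be named. Families were formed from reference symbols and synonyms after values were seen, and their other genes were named then. The work used Python 3.11.15, numpy 2.4.6 and pandas 2.3.3.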

Additional observations from a re-analysis of the deposited data

How the results depend on the processing

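All alternatives given here were chosen after seeing the data. At 500 TPM the list grew to 168 transcripts with 78.1% of sperm TPM, and at 2000 TPM it shrank to 49 with 67.3%. Rescaling without the 10 highest transcripts gave 141 with 58.3%. Rescaling without organellar transcripts kept 87 with 72.8%. Leaving out the ribosomal RNA locus and AT2G01021 left 85 with 69.7% of the unchanged sperm total. That share was not rescaled, so it cannot be set beside the rescaled ones. The families whose highest relative was at least 10 times lower numbered 11 at 2000 TPM, 17 at 500 TPM and 17 with 1 TPM added to each value. At 2000 TPM, families with no gene at that level cannot be counted, so 11 is not out of the 28. At 500 TPM more genes count as abundant, and the families counted are not all the same ones. SKP1-like genes drop out there and poly(A)-binding proteins enter. The share of relatives detected was 71.6% from 0.1 TPM and 37.5% from 5 TPM. The count of 6 genes of the DUO1 list was the same at 500 and 2000 TPM. Comparisons that need the other columns, and leaving out single libraries, were not run, since single-library values were not analysed here. No paired analysis was possible because the table holds 1 sperm column and no second group. Depth is unknown, and a low value or a 0 is no proof of absence.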
